A study of Mus musculus with 12 samples.

Results

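The genes described here are targets of p53, the transcription factor that cells activate when their DNA is damaged. They were taken by name from a list of 34 established targets. No measured value enters that rule, but the list was drawn up with earlier results of these data known. Each was read from the transcript cluster (the set of probes summarized as 1 gene) whose annotation gives exactly 1 gene symbol, taking the cluster of highest mean level where a symbol had several. This gave 33 genes of the 15223 symbols that could be read in this way. Fdxr had no such cluster, and neither did Trp53, which encodes p53 itself. Neither was analysed here.

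RNA of female mice of the Sdl (spontaneous dominant leukemia) model was measured on 12 Affymetrix exon arrays, 4 per group and 1 per pool of 3 organs, and the labels call the pools of a group biological replicates. The 4 tumor pools held thymic tumors of Mcm4 (D573H/+) mice, taken when the animals were moribund. The 4 pre-leukemic pools held whole thymus of Mcm4 (D573H/+) mice at 21 days of age, and the 4 wild-type pools held whole thymus of Mcm4 (+/+) mice of that age. Mcm4 is part of the MCM complex, the helicase of DNA replication. The mice carry the substitution in 1 of 2 copies, and the labels give it as a genotype of the mice, with no transgene or Cre. Genotype, age and disease all separate tumors from wild-type thymus, and age and disease separate them from the pre-leukemic pools, so these factors cannot be told apart. Values below are log2 normalized intensities, and a difference is called at a limma adjusted p under 0.05 over all 17829 clusters. Markers of the T lineage and of thymic epithelium were present in both whole-thymus groups. Arrays of the same group had correlations of 0.984 to 0.996 over the clusters (genes are not independent replicates), and no pair of arrays held identical values. Pre-leukemic arrays 1 and 2 and tumor arrays 2 and 3 had the narrowest ranges of intensity, with an interquartile range of 2.56 to 2.76 against 2.84 to 3.17 for the other 8 arrays.

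In a resting cell p53 is kept low by Mdm2, a ubiquitin ligase that is itself a p53 target, so the pathway limits itself. When kinases such as Atm and Chek2 are activated by broken or stalled DNA, p53 escapes Mdm2 and binds DNA as a tetramer at paired half-sites. Its targets then halt the cell cycle (p21, encoded by Cdkn1a), start apoptosis (the BH3-only proteins Puma and Noxa, death receptors, Apaf1), repair the damage, and adjust metabolism. Thymocytes are known for dying readily when p53 is activated, and mice that lack p53 are known to develop thymic lymphoma.

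Promoter letters were available from RefSeq (GRCm38.p6) for 26 of the 33 genes, as 38 windows of the 250 bases before a transcript start. A p53 half-site that matches the consensus exactly on its 10 bases was found on either strand in 8 of the 38 windows (21.1%), against 7.13% of the 32851 windows of all genes. A full site, 2 half-sites separated by 0 to 13 bases, was present with at most 1 mismatch over its 20 bases in 3 of the 38 windows (7.89%, against 0.898% of all windows). With at most 2 mismatches it was present in 8 of the 38 windows (21.1%, against 8.45% of all windows). These windows overlap where transcript starts lie close together, and p53 sites in introns or farther upstream were not searched. A match of letters is not evidence that p53 bound there. The closest pair of half-sites in 5 promoters is shown in capitals below, because these genes went different ways in the tumors: Ccng1, Polk and Aen rose, Sesn1 fell and Cdkn1a was not called. Letters run 5′ to 3′ along the gene's own strand.
Cdkn1a (chr17:29090886-29090957, + strand, 0 mismatches): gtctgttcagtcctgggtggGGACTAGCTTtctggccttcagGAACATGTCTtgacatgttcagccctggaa
Ccng1 (chr11:40755442-40755501, - strand, 1 mismatch): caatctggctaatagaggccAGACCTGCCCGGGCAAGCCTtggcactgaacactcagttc
Polk (chr13:96519378-96519437, - strand, 1 mismatch): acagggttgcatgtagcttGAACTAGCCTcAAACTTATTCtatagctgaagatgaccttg
Aen (chr7:78895917-78895983, + strand, 2 mismatches): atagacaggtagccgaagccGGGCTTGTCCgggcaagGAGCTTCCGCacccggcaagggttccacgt
Sesn1 (chr10:41887233-41887295, + strand, 2 mismatches): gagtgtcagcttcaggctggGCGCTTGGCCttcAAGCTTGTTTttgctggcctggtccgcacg
Cdkn1a was the only one of the 33 genes with an exact full site in these windows, and 21 of all 32851 windows (0.0639%) held one. That window precedes an upstream start of Cdkn1a, and the 10 bases right after its second half-site, tgacatgttc, match a half-site with 1 mismatch. The window before the other start of Cdkn1a holds no exact half-site. The Ccng1 half-sites abut, so they read as a single run of capitals. The Polk and Sesn1 windows each precede a start inside the gene, downstream of another listed start. Ckap2, Cd80 and Trp73 also had a pair with 2 mismatches in these windows and are not shown.

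Setting tumors against wild-type thymus, as the series' design does, asks how these targets stood once the tumors had formed. The targets did not move as a block: 11 of the 33 rose, 8 fell and 14 were not called. The largest rises were those of Psrc1, a protein of the mitotic spindle (3.02-fold), and Zmat3, an RNA-binding zinc finger protein (2.24-fold). The largest falls were those of Perp, a membrane protein of desmosomes and apoptosis (7.14-fold), and the death receptor Fas (4.08-fold). These 4 were the only called members that differed at least 2-fold, as did 4.64% of all clusters. Across all clusters 30.7% were called, 16.2% higher and 14.5% lower. The share of members called, 57.6%, was above this. The median difference of the 33 members was 0.08 on the log2 scale, against 0.07 for all clusters, and the median size was 0.25, against 0.20. For 20 members the 4 tumor arrays did not overlap the 4 wild-type arrays, 12 higher and 8 lower, against 34% of all clusters (18.3% higher and 15.7% lower). In whole tissue, fewer cells of a type and less RNA per cell cannot be told apart. Markers of cortical epithelium and most of those of double-positive thymocytes were lower in the same tumors. Their values are given under the cell types at the end, and the part of these cells in the target values was not tested. The tumors also varied more among themselves: the median SD of the 33 members was 0.15 in tumors, 0.12 in pre-leukemic pools and 0.07 in wild-type pools, while over all clusters it was 0.18 in tumors, 0.17 in pre-leukemic pools and 0.09 in wild-type pools.

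**Figure D1:**
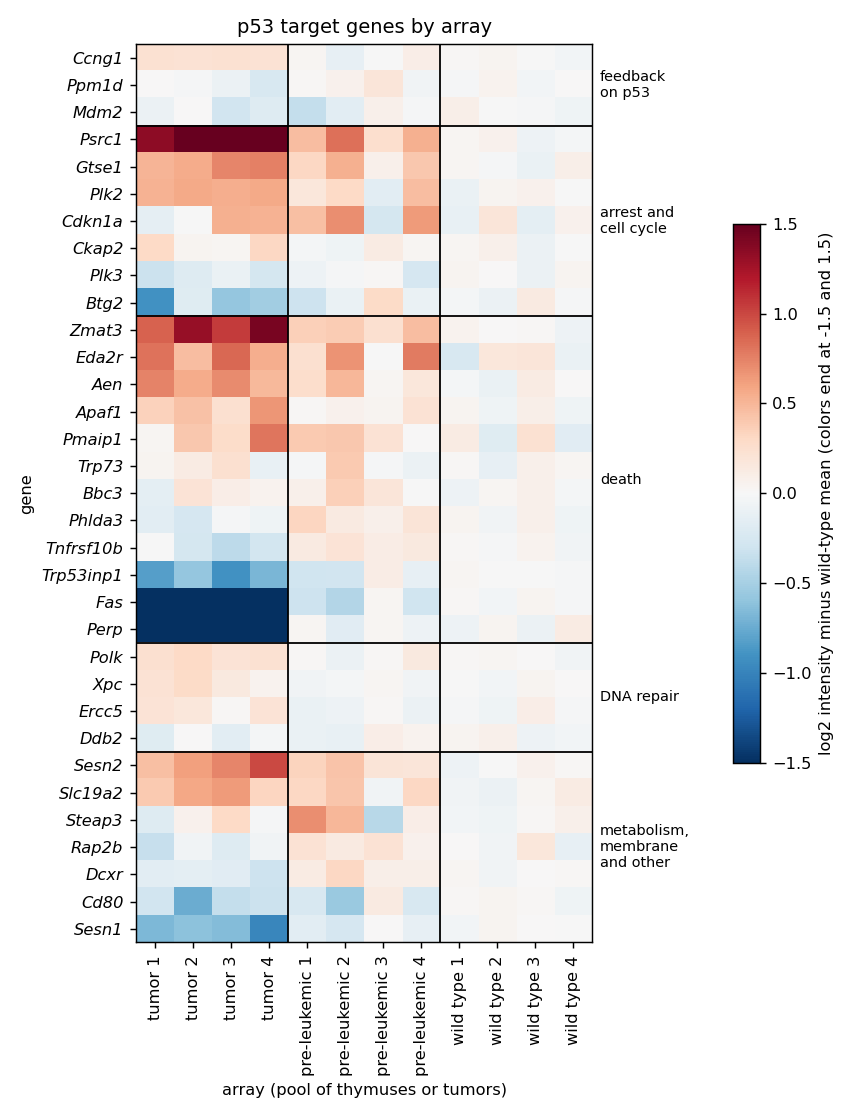
Each row is 1 of the 33 p53 targets, sorted by role and then by the tumor difference, and each column is 1 array, with tumors on the left and wild type on the right. Color gives log2 intensity minus the wild-type mean of the gene, with colors ending at -1.5 and 1.5. Psrc1 and Zmat3 are the reddest rows in tumors, Perp and Fas the bluest, and each role holds rows above and below wild type in the tumors.

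Of the 3 genes grouped as feedback on p53 (Mdm2, Ccng1 and Ppm1d), Ccng1 was called. Ccng1 encodes cyclin G1, which acts with a phosphatase on Mdm2. It measured 12.29, 12.27, 12.28 and 12.27 on the tumor arrays, 12.08, 11.93, 12.04 and 12.15 in pre-leukemic thymus and 12.07, 12.09, 12.04 and 12.01 in wild-type thymus. Every tumor array lay above every other array, although the rise over wild type was small (0.22 ± 0.06 on the log2 scale, here and below with its SE from 4 arrays a group, limma adjusted p = 0.0175). The call was lost without wild-type replicate 1 (0.23, limma adjusted p = 0.0537) or 4 (0.21, limma adjusted p = 0.0665). Mdm2 measured 9.19 ± 0.13 in tumors, 9.22 ± 0.19 in pre-leukemic pools and 9.34 ± 0.06 in wild-type pools (mean ± SD, n = 4 each). Its tumor difference of -0.14 had a 95% interval of -0.33 to 0.04. Ppm1d, the phosphatase Wip1 that reverses the phosphorylation of p53 and Atm, differed by -0.08 (-0.25 to 0.08). Neither was called.

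Of the 7 genes of arrest and the cell cycle, 3 rose, 2 fell and 2 were not called (71.4% called, against 30.7% of all clusters). Psrc1 measured 9.57, 9.81, 9.92 and 9.97 in tumors, 8.69, 9.05, 8.47 and 8.75 in pre-leukemic pools and 8.25, 8.29, 8.15 and 8.20 in wild-type pools. The 3 groups did not overlap, and tumors exceeded wild type by 1.60 ± 0.10 (limma adjusted p = 9.94e-06). The other cluster annotated to Psrc1 gave 1.65 ± 0.09 (limma adjusted p = 5.66e-06). Gtse1, a protein of the G2 phase that restrains p53 and moves it out of the nucleus, measured 8.87, 8.92, 9.09 and 9.12 in tumors, 8.67, 8.90, 8.44 and 8.77 in pre-leukemic pools and 8.40, 8.35, 8.27 and 8.45 in wild-type pools. All tumor arrays were above all wild-type arrays (0.64 ± 0.08, limma adjusted p = 0.000539), and pre-leukemic array 2 reached into the tumor range. Ckap2, a protein of the spindle poles, differed by 0.17 (-0.03 to 0.38) and was not called, but was without the 4 arrays of narrowest range (0.31, limma adjusted p = 0.0122).

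Plk2, a polo-like kinase induced by stress, measured 6.78, 6.82, 6.80 and 6.83 in tumors, 6.43, 6.55, 6.10 and 6.72 in pre-leukemic pools and 6.16, 6.29, 6.32 and 6.25 in wild-type pools. The tumor values spanned only 6.78 to 6.83 and lay above all 8 thymus arrays (0.55 ± 0.06 against wild type, limma adjusted p = 0.000282). Plk2 was weak in wild type, at a mean of 6.26, below the 6.43 mark of weak signal given with Eda2r below. Its relative Plk3 measured 7.21, 7.34, 7.44 and 7.28 in tumors, 7.46, 7.51, 7.56 and 7.29 in pre-leukemic pools and 7.58, 7.55, 7.45 and 7.57 in wild-type pools. Tumors were below wild type without overlap but close to it (-0.22 ± 0.07, limma adjusted p = 0.0483). This call was lost without any wild-type array or without tumor replicate 1, 2 or 4, in which case the difference was -0.25 to -0.18. Within an array, Plk2 minus Plk3 was -0.64 to -0.43 in tumors, -1.46 to -0.56 in pre-leukemic pools and -1.42 to -1.13 in wild-type pools. That difference has no meaning as a level, since 2 probe sets are involved. It was higher on every tumor array than on any wild-type array. This follows from the values of Plk2 and Plk3, which each parted tumors from wild type, so it adds no support.

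Btg2, an antiproliferative cofactor of mRNA decay, measured 10.98, 11.71, 11.31 and 11.37 in tumors, 11.58, 11.79, 12.18 and 11.80 in pre-leukemic pools and 11.87, 11.80, 12.03 and 11.87 in wild-type pools. Tumors were lower than wild type (-0.55 ± 0.14, limma adjusted p = 0.0160), with tumor array 2 the nearest to wild type. Cdkn1a, the inhibitor p21 that stops cyclin-dependent kinases, is outside the rule for genes given by array and is given because its promoter is shown above. It measured 8.33, 8.46, 8.99 and 8.99 in tumors, 8.92, 9.16, 8.19 and 9.10 in pre-leukemic pools and 8.36, 8.65, 8.32 and 8.53 in wild-type pools. Tumor arrays 1 and 2 were within the wild-type range and tumor arrays 3 and 4 above it. The mean difference was 0.23 with a 95% interval of -0.14 to 0.60, and it was not called.

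**Figure D2:**
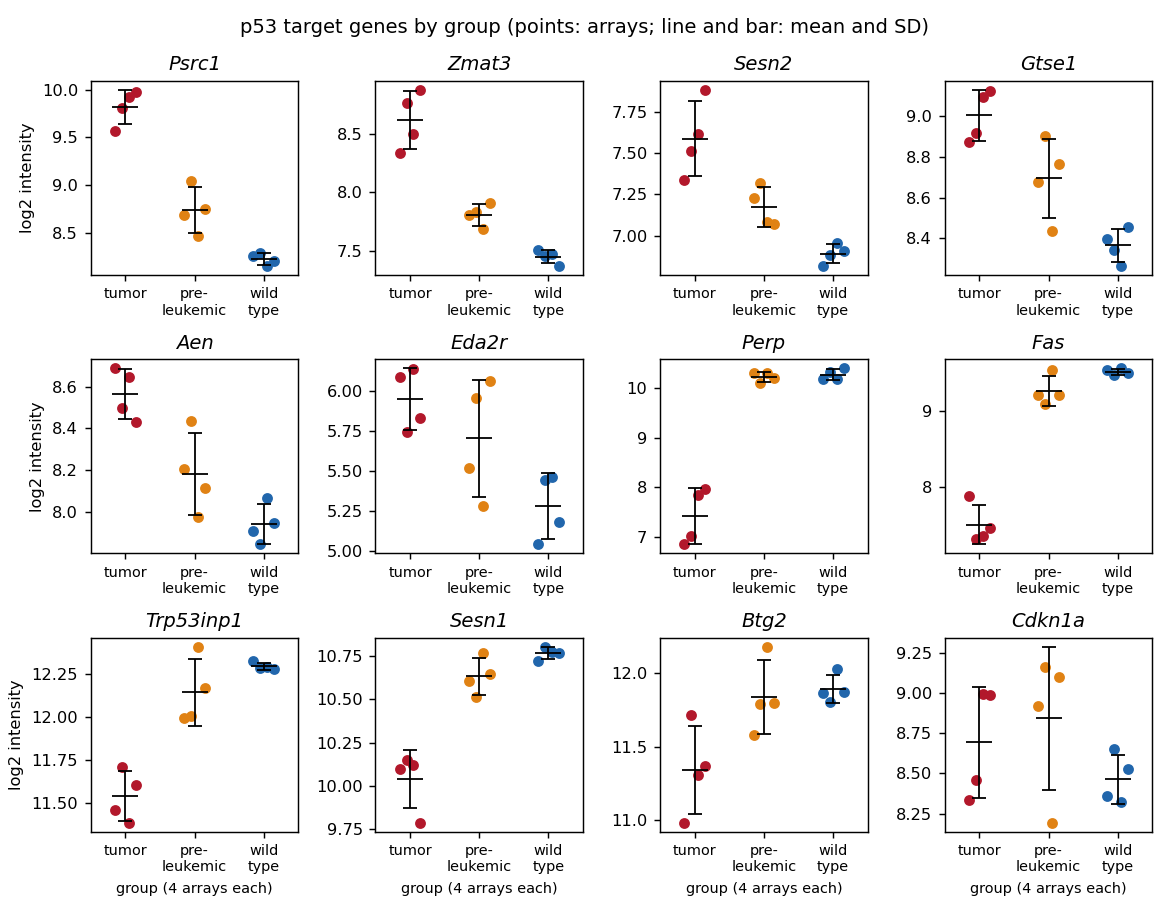
Each panel shows log2 intensity of 1 gene, with a point per array, a line at the group mean and a bar of 1 SD, for tumor, pre-leukemic and wild-type thymus (4 arrays each). The axes of the panels differ and do not start at 0. The 6 genes Psrc1, Zmat3, Sesn2, Gtse1, Aen and Eda2r are higher on every tumor array than on any wild-type array, while Perp, Fas, Trp53inp1, Sesn1 and Btg2 are lower, and the groups of Cdkn1a overlap.

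The promoters of Psrc1 and Gtse1 both carry CCAAT, the box bound by NF-Y that is common in cell-cycle promoters, here in capitals on either strand.
Psrc1 (chr3:108383743-108383787, + strand): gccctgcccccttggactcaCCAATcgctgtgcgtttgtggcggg
Gtse1 (chr15:85859588-85859658, + strand): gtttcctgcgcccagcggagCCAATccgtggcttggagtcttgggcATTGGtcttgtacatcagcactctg
A further CCAAT match of this Psrc1 promoter, at -241 from the start, is not shown. CCAAT was present in 20 of the 38 member windows (52.6%) and in 33.8% of all windows. The element TTTGAA, part of many promoters that p21 represses through the DREAM complex, was in 4 of the 38 (10.5%), Ckap2 among them, and in 16% of all windows. Both strands were read, and in none of the 38 windows (0) did matches of different motifs (these 2 and the p53 half-site) overlap.

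The 12 genes of cell death held the widest range, with 4 rises, 3 falls and 5 genes not called (58.3% called, against 30.7% of all clusters). Zmat3 measured 8.33, 8.76, 8.50 and 8.87 in tumors, 7.80, 7.83, 7.69 and 7.91 in pre-leukemic pools and 7.50, 7.45, 7.47 and 7.37 in wild-type pools. Its 3 groups did not overlap, and tumors exceeded wild type by 1.16 ± 0.12 (limma adjusted p = 0.000136). Aen, a nuclease that helps to digest DNA in apoptosis, measured 8.69, 8.50, 8.65 and 8.43 in tumors, 8.20, 8.44, 7.97 and 8.11 in pre-leukemic pools and 7.91, 7.84, 8.07 and 7.94 in wild-type pools. It rose in tumors (0.63 ± 0.08, limma adjusted p = 0.000639), and 1 pre-leukemic array reached the lowest tumor. Eda2r, a receptor of the tumor necrosis factor family that binds ectodysplasin, measured 6.09, 5.74, 6.14 and 5.83 in tumors, 5.52, 5.96, 5.28 and 6.06 in pre-leukemic pools and 5.04, 5.45, 5.46 and 5.18 in wild-type pools. The rise over wild type was 0.67 ± 0.13 (limma adjusted p = 0.00404). Eda2r was weak, below 6.43 in mean, the 90th percentile of 787 clusters of olfactory receptors, which serve here as genes not expected in thymus, and so was Trp73 (6.40 ± 0.15 in tumors, 6.32 ± 0.08 in wild type, not called).

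Apaf1, the scaffold on which caspase-9 is activated, measured 9.18, 9.26, 9.07 and 9.49 in tumors, 8.84, 8.89, 8.87 and 9.04 in pre-leukemic pools and 8.87, 8.76, 8.92 and 8.76 in wild-type pools. All 4 tumor arrays lay above all 8 thymus arrays (0.42 ± 0.10 against wild type, limma adjusted p = 0.0102). The BH3-only genes, which trigger the mitochondrial route to death, were not called. Bbc3, encoding Puma, differed by 0.05 (-0.14 to 0.25), and Pmaip1, encoding Noxa, by 0.38 (0.00 to 0.76). Pmaip1 varied among tumors, at 7.30, 7.67, 7.54 and 8.07, and was called without tumor replicate 1 (0.50, limma adjusted p = 0.0428). Without tumor replicate 4 its difference was 0.24 (limma adjusted p = 0.232). Phlda3, an inhibitor of Akt, was likewise not called (-0.12, -0.29 to 0.05).

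Perp measured 6.86, 7.03, 7.86 and 7.96 in tumors, 10.30, 10.10, 10.29 and 10.19 in pre-leukemic pools and 10.18, 10.31, 10.17 and 10.39 in wild-type pools. Tumors were lower by more than 2 log2 units on every array, and the spread among tumors (SD 0.56) was the largest of any member in any group (-2.84 ± 0.24, limma adjusted p = 5.75e-05). Fas, the receptor through which T cells are killed by Fas ligand, measured 7.88, 7.31, 7.36 and 7.46 in tumors, 9.21, 9.09, 9.55 and 9.22 in pre-leukemic pools and 9.55, 9.48, 9.57 and 9.51 in wild-type pools. Tumors lay far below both kinds of thymus (-2.03 ± 0.12 against wild type, limma adjusted p = 9.94e-06). Trp53inp1, a nuclear stress protein that helps p53 to induce apoptosis, measured 11.46, 11.71, 11.39 and 11.61 in tumors, 11.99, 12.01, 12.41 and 12.17 in pre-leukemic pools and 12.32, 12.28, 12.29 and 12.28 in wild-type pools. It fell in all 4 tumor pools (-0.75 ± 0.08, limma adjusted p = 0.000210). Tnfrsf10b, the mouse receptor of the death ligand TRAIL, measured 7.34, 7.07, 6.94 and 7.07 in tumors, 7.47, 7.55, 7.46 and 7.49 in pre-leukemic pools and 7.36, 7.32, 7.39 and 7.29 in wild-type pools. It was not called against wild type (-0.24 ± 0.09, limma adjusted p = 0.0751), but was without tumor replicate 1 (-0.31, limma adjusted p = 0.0109), with all 12 arrays in 1 fit (limma adjusted p = 0.0446) and with array weights (limma adjusted p = 0.0414).

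Averaged over the 12 death genes, log2 intensity was 7.90 to 8.05 on the tumor arrays, 8.27 to 8.37 in pre-leukemic pools and 8.14 to 8.25 in wild-type pools, so that tumors were lowest. Without Perp and Fas, left out after their values were seen, the mean of the other 10 was 8.01 to 8.12 in tumors, 7.94 to 8.12 in pre-leukemic pools and 7.78 to 7.93 in wild-type pools. With these 2 members left out, the tumor range lay above the wild-type range and no longer below it. Perp and Fas had the largest falls of the 12, so leaving them out raises the tumor mean relative to wild type by construction. The largest rise, that of Zmat3 (1.16), was kept, so this does not show that the other death genes rose.

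**Figure D3:**
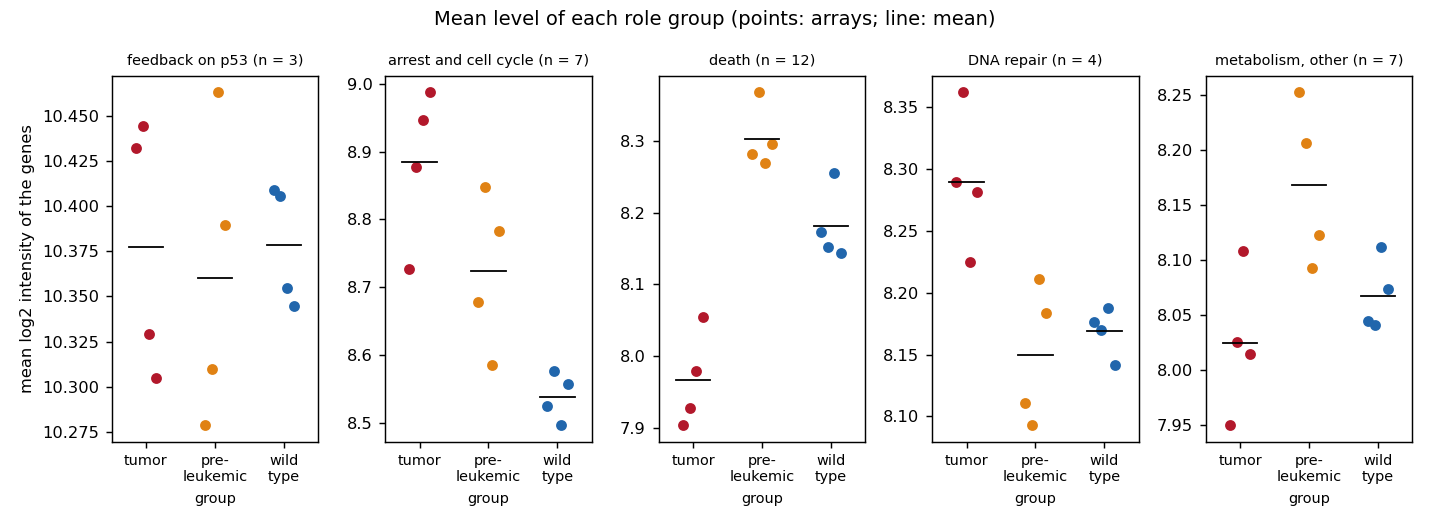
Mean log2 intensity over the genes of each role is plotted per array, with a line at the group mean, for tumor, pre-leukemic and wild-type thymus. Panel axes differ and do not start at 0. The arrest and cell-cycle genes lie at 8.73 to 8.99 in tumors, above the 8.50 to 8.58 of wild type, and the death genes at 7.90 to 8.05, below the 8.14 to 8.25 of wild type. The arrest mean includes Psrc1, whose rise of 1.60 was the largest of these 7 genes. Of the 7, 3 rose, 2 fell and 2 were not called, so the mean does not show that they rose as a group.

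Of the 4 DNA repair genes 1 was called (25%, against 30.7% of all clusters). Polk, the polymerase that copies past damaged bases, measured 8.42, 8.47, 8.38 and 8.40 in tumors, 8.19, 8.08, 8.19 and 8.32 in pre-leukemic pools and 8.19, 8.20, 8.18 and 8.12 in wild-type pools. Tumors lay above all 8 thymus arrays (0.25 ± 0.06 against wild type, limma adjusted p = 0.0134), but the call was lost without wild-type replicate 4 (0.23, limma adjusted p = 0.0527). Xpc and Ddb2, which recognize damage for nucleotide excision repair, differed by 0.17 (0.01 to 0.34) and -0.09 (-0.25 to 0.08). The endonuclease gene Ercc5, which cuts beside the damage, differed by 0.15 (-0.01 to 0.31). None of these 3 was called. The tumor values of Xpc were all above wild type, but only just, the lowest at 7.9934 against a highest wild-type value of 7.9922.

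Of the 7 measured genes of metabolism, membrane and other roles, 2 rose, 3 fell and 2 were not called (71.4% called, against 30.7% of all clusters). The sestrins, stress proteins that restrain the growth kinase mTORC1, went opposite ways. Sesn2 measured 7.34, 7.51, 7.62 and 7.88 in tumors, 7.23, 7.32, 7.08 and 7.07 in pre-leukemic pools and 6.82, 6.88, 6.96 and 6.91 in wild-type pools. Sesn1 measured 10.10, 10.15, 10.12 and 9.79 in tumors, 10.61, 10.51, 10.77 and 10.65 in pre-leukemic pools and 10.72, 10.81, 10.78 and 10.77 in wild-type pools. Against wild type, Sesn2 rose by 0.70 ± 0.11 (limma adjusted p = 0.00160) and Sesn1 fell by 0.73 ± 0.09 (limma adjusted p = 0.000414). Sesn2 minus Sesn1, taken within an array, was -2.76 to -1.90 in tumors, -3.69 to -3.19 in pre-leukemic pools and -3.93 to -3.82 in wild-type pools. These 3 ranges do not overlap. For tumors this follows from the values above, with Sesn2 above and Sesn1 below every thymus array, so it adds no support.

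Slc19a2, a thiamine transporter, measured 7.73, 7.93, 7.99 and 7.67 in tumors, 7.66, 7.76, 7.29 and 7.66 in pre-leukemic pools and 7.29, 7.26, 7.38 and 7.47 in wild-type pools. It rose in tumors (0.48 ± 0.09, limma adjusted p = 0.00390). Cd80, the ligand of CD28 on antigen-presenting cells, measured 7.62, 7.15, 7.54 and 7.58 in tumors, 7.66, 7.35, 8.04 and 7.66 in pre-leukemic pools and 7.92, 7.94, 7.91 and 7.84 in wild-type pools. It fell in tumors (-0.43 ± 0.11, limma adjusted p = 0.0132), with tumor array 2 the lowest. Dcxr, a reductase of dicarbonyls and xylulose, measured 7.69, 7.71, 7.68 and 7.55 in tumors, 7.98, 8.16, 7.95 and 7.95 in pre-leukemic pools and 7.89, 7.80, 7.87 and 7.88 in wild-type pools. Tumors were slightly lower (-0.20 ± 0.07, limma adjusted p = 0.0481), a call lost without any wild-type array or without tumor replicate 1, 3 or 4 (differences of -0.22 to -0.16). The calls of Plk3 and Dcxr were also lost with all 12 arrays in 1 fit, with arrays centred on their medians and with limma's trend (limma adjusted p of 0.0512 to 0.0865 over these 6 fits). Steap3, an iron reductase, and Rap2b, a Ras-related GTPase, differed by 0.03 (-0.20 to 0.27) and -0.16 (-0.38 to 0.05) and were not called.

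**Figure D4:**
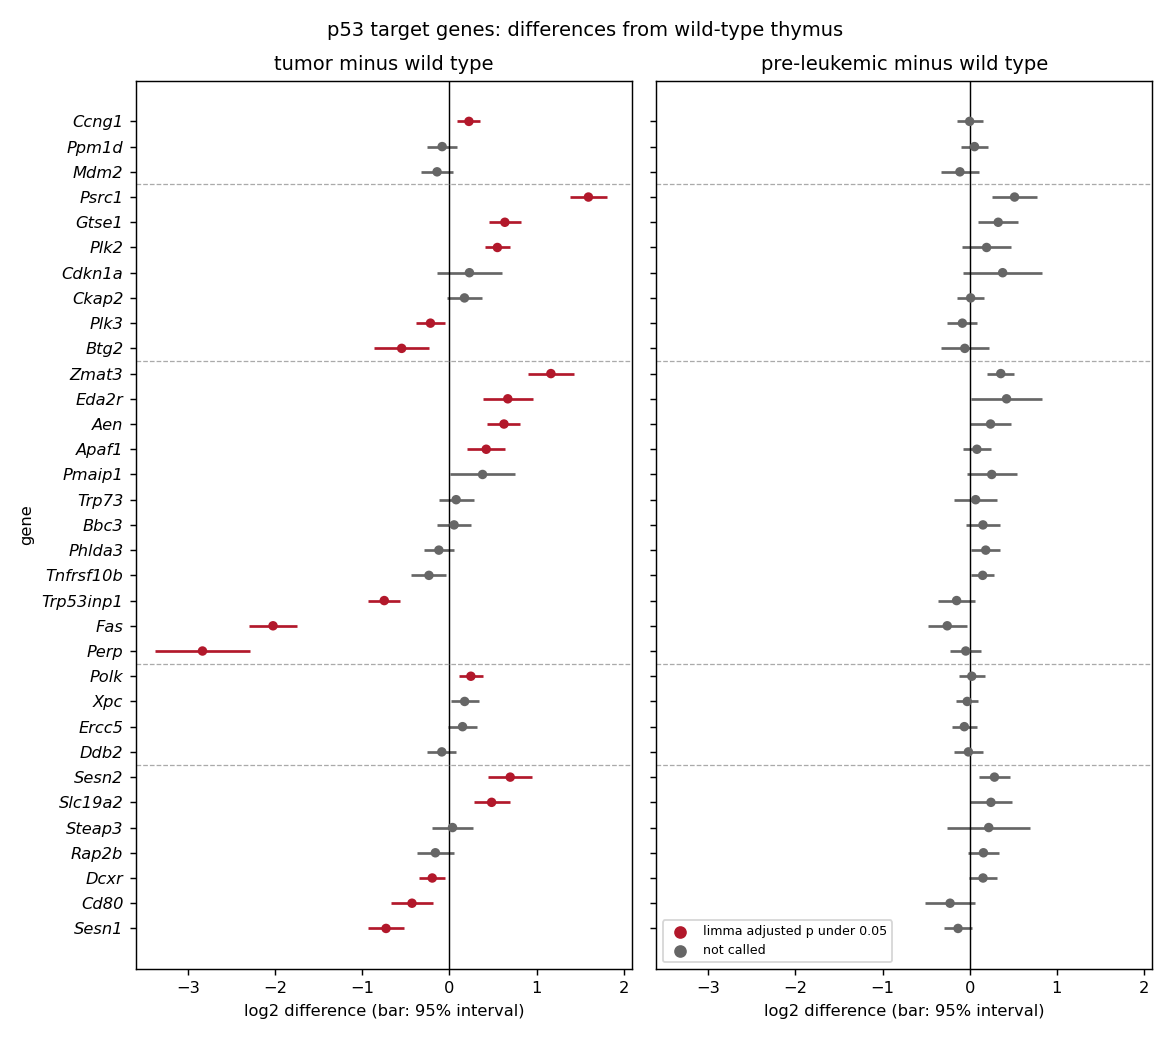
Log2 differences from wild-type thymus are shown with 95% intervals from the limma fit for each of the 33 genes, for tumors on the left and pre-leukemic thymus on the right, with red marking a limma adjusted p under 0.05. Dashed lines part the roles, in the order of the text. In tumors 19 genes are called, from Perp at -2.84 to Psrc1 at 1.60, and in pre-leukemic thymus none is, with differences of -0.26 to 0.52.

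The design's other comparison, of pre-leukemic against wild-type thymus, asks whether the Mcm4 substitution alters these targets before any tumor. No p53 target was called: limma called 0 of the 33 members and 0% of all clusters, in the fit of these 8 arrays and in the fit of all 12. At an unadjusted p under 0.05 there were 10 members, 9 higher and 1 lower, against 6.24% of all clusters (4.42% higher and 1.82% lower). The median difference of the 33 members was 0.08, against 0.04 for all clusters, and 22 of the 33 were positive, against 61.9% of clusters. With each array centred on its median, the 9 higher members at that p became 4. The count was between 4 and 13 when 1 array was left out, with 4 without wild-type replicate 1, 5 without wild-type replicate 2 or 4 or pre-leukemic replicate 2, and 13 without pre-leukemic replicate 3. Without pre-leukemic arrays 1 and 2, which had the narrow range, it was 3.

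For 6 members all pre-leukemic arrays lay above all wild-type arrays, and for 0 all lay below, against 4.43% of clusters (3.65% higher and 0.78% lower). These 6 were Psrc1 (0.52 ± 0.11), Zmat3 (0.36 ± 0.07), Sesn2 (0.29 ± 0.08), Phlda3 (0.19 ± 0.07), Dcxr (0.15 ± 0.07) and Tnfrsf10b (0.15 ± 0.06), each with a limma adjusted p of 0.764. Zmat3 had the smallest unadjusted p of the 33, and the values of these genes by array are given above except for Phlda3, at 8.66 ± 0.11 in pre-leukemic pools and 8.48 ± 0.07 in wild-type pools (mean ± SD, n = 4 each). Gtse1 (0.33 ± 0.10) and Fas (-0.26 ± 0.10) were also among the 6 members of smallest p, at the same adjusted p, and for both the groups overlapped. Fas was the only member that was lower at an unadjusted p under 0.05. Pre-leukemic array 3, at 9.55, lay within the wild-type range of Fas, and the other 3 pre-leukemic arrays lay below it. The tumor and pre-leukemic differences are taken from the same wild-type arrays, so their values beside each other are not independent.

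Cdkn1a was higher than every wild-type array on pre-leukemic arrays 1, 2 and 4 and lower than every wild-type array on array 3 (values given above; difference 0.38 ± 0.20, limma adjusted p = 0.764). Steap3 varied in a like way, at 8.51, 8.31, 7.40 and 7.92 in pre-leukemic against 7.78, 7.76, 7.83 and 7.89 in wild-type thymus, and had the largest SD of any member among the pre-leukemic arrays (0.49). Array 3 was the lowest of its group for 11 of the 33 genes and the highest for 12, against 8 and 11 on array 2, 8 and 6 on array 4, and 6 and 4 on array 1. The 11 were Cdkn1a, Steap3, Psrc1, Gtse1, Plk2, Zmat3, Aen, Eda2r, Phlda3, Tnfrsf10b and Slc19a2. The 12 were Fas, Trp53inp1, Sesn1, Cd80, Btg2, Plk3, Ckap2, Mdm2, Ppm1d, Xpc, Ddb2 and Ercc5. Pre-leukemic array 3 also stood apart in fat markers, whose summed intensity was 2023 there against 8257 to 13500 on the other pre-leukemic arrays and 6977 to 11200 in wild type. The summed intensity of double-positive thymocyte markers was 24780 on array 3, against 19910 to 21530 on the other pre-leukemic arrays and 22950 to 24200 in wild type. The part of these cell types in the values was not tested. For the feedback genes the 95% intervals were -0.15 to 0.15 (Ccng1), -0.10 to 0.21 (Ppm1d) and -0.33 to 0.11 (Mdm2). For the repair genes they were -0.13 to 0.18 (Polk), -0.16 to 0.10 (Xpc), -0.18 to 0.16 (Ddb2) and -0.20 to 0.08 (Ercc5). All of these included 0, which does not show that the genes were unchanged.

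The comparison of tumor with pre-leukemic thymus holds the genotype constant and differs in disease and age. It is not named in the series' design, and it uses the same tumor arrays as the comparison with wild type. Here 2 of the 33 members rose and 6 fell, against 16% of all clusters called (7.74% higher and 8.27% lower). Of the falls, 4 were death genes and 2 belonged to metabolism, membrane and other roles. The rises were Psrc1 (1.08 ± 0.14, limma adjusted p = 0.00119) and Zmat3 (0.81 ± 0.13, limma adjusted p = 0.00327). The largest falls were again Perp (-2.79 ± 0.24, limma adjusted p = 0.000135) and Fas (-1.77 ± 0.15, limma adjusted p = 0.000133). Trp53inp1 (-0.60 ± 0.12, limma adjusted p = 0.010) and Sesn1 (-0.60 ± 0.11, limma adjusted p = 0.00616) fell as well. Both of these calls and that of Zmat3 were lost without the 4 arrays of narrowest range, with differences of -0.75, -0.77 and 0.80. That fit held only pre-leukemic arrays 3 and 4 and tumor arrays 1 and 4, and the differences themselves stayed of similar or larger size.

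Tnfrsf10b (-0.39 ± 0.10, limma adjusted p = 0.0281) and Dcxr (-0.35 ± 0.09, limma adjusted p = 0.0251) were the remaining falls against pre-leukemic thymus. The Tnfrsf10b call was lost without pre-leukemic replicate 1, 2 or 4 or tumor replicate 2, 3 or 4 (-0.39 to -0.33), and that of Dcxr without pre-leukemic replicate 1 or 2 or tumor replicate 3 or 4 (-0.36 to -0.30). Both were also lost with arrays centred on their medians (-0.32 for Tnfrsf10b and -0.29 for Dcxr) and without the 4 arrays of narrowest range (-0.27 and -0.33). Calls were gained for Aen without pre-leukemic replicate 2 (0.47), Plk2 without pre-leukemic replicate 4 (0.45), Sesn2 without tumor replicate 1 (0.50), Btg2 without tumor replicate 2 (-0.62) and Apaf1 without tumor replicate 3 (0.40). For 17 members the groups did not overlap, 9 higher and 8 lower, against 21.8% of clusters (11.6% higher and 10.2% lower). With all 12 arrays in 1 fit, the counts were 11 higher and 9 lower. With arrays centred on their medians they were 6 higher and 4 lower. With quantile normalization, calls were gained for Sesn2 (0.49), Phlda3 (-0.32) and Rap2b (-0.28) and lost for Tnfrsf10b (-0.31). The balance of rises and falls in this comparison thus differed between fits, and the cause was not tested.

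The genes that act on p53 were also read, from a list of 26 of which 22 had a cluster. In tumors against wild type 4 rose and 4 fell, a share of 36.4% called against 30.7% of all clusters, with a median difference of -0.0027 against 0.07. The rises were led by the damage kinases Chek2 (0.52 ± 0.13, limma adjusted p = 0.0126) and Atm (0.40 ± 0.07, limma adjusted p = 0.00233). The falls were led by Trp63 (-1.70 ± 0.11, limma adjusted p = 1.35e-05), a p53 relative that epithelial cells need, and Ppp1r13b (-0.95 ± 0.18, limma adjusted p = 0.00436), which steers p53 towards death genes. Mdm4, the partner of Mdm2, differed by -0.23 (-0.46 to 0.00), and Cdkn2a, whose product Arf blocks Mdm2, by 0.41 (0.08 to 0.73). These 2 were picked after their values were seen, and neither was called. In pre-leukemic thymus 0 of the 22 were called and 0 had an unadjusted p under 0.05. Mcm4 itself differed by 0.30 ± 0.08 in tumors (limma adjusted p = 0.0183, lost without wild-type replicate 2, 0.30, or 3, 0.28), and its cluster reads transcripts of both alleles together.

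Of 34 further p53 targets listed, 24 had a cluster, of which 8 rose and 6 fell in tumors (58.3% called, against 30.7% of all clusters; median difference 0.01, against 0.07). Ndrg1, a stress-response gene (1.06 ± 0.22, limma adjusted p = 0.00596), and Ddit4, an inhibitor of mTORC1 (0.93 ± 0.07, limma adjusted p = 3.09e-05), rose most. Ephx1, an epoxide hydrolase (-1.04 ± 0.11, limma adjusted p = 0.000180), and Pank1, a kinase of coenzyme A synthesis (-0.65 ± 0.11, limma adjusted p = 0.00226), fell most. Of 24 mitotic genes that p53 lowers through p21 and the DREAM complex, 22 had a cluster, of which 8 rose and 1 fell (40.9% called, against 30.7% of all clusters; median difference 0.11, against 0.07). Mybl2 (0.65 ± 0.09, limma adjusted p = 0.000654) and Aurkb (0.47 ± 0.08, limma adjusted p = 0.00262), a transcription factor and a kinase of mitosis, rose most. The fall was that of Ccna2, cyclin A2 (-0.23 ± 0.07, limma adjusted p = 0.0279), lost without wild-type replicate 1 (-0.22), 2 (-0.23) or 4 (-0.22) or tumor replicate 4 (-0.19). These mitotic differences were smaller than that of Psrc1, and in pre-leukemic thymus 0 genes of either list were called.

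Markers of the cell types in the pools also differed between tumors and wild-type thymus, where 16.2% of all clusters rose and 14.5% fell. All 10 measured markers of cortical thymic epithelium fell in tumors, where their summed intensity was 3650 to 5240, against 34350 to 37270 in pre-leukemic pools and 31810 to 36050 in wild-type pools. The lowest relative to wild type were Prss16 (-5.81) and Tbata (-5.40). Of 7 medullary epithelial markers 6 fell, with sums of 1014 to 2026 in tumors, 3654 to 5000 in pre-leukemic pools and 4271 to 4599 in wild-type pools, led by Krt17 (-2.67) and Epcam (-2.19). Of 6 markers of double-positive thymocytes, the most numerous cells of a young thymus, 5 fell, led by Ccr9 (-2.89) and Rag2 (-2.12). The remaining marker, Ptcra, was higher in tumors by 0.66 (0.11 to 1.20) and was not called. The 6 had sums of 6195 to 11140 in tumors, 19910 to 24780 in pre-leukemic pools and 22950 to 24200 in wild-type pools. All 7 fat markers fell (sums of 799.7 to 1885 in tumors, 2023 to 13500 in pre-leukemic pools and 6977 to 11200 in wild-type pools), led by Ucp1 (-4.66) and Car3 (-4.12).

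Of 7 B-cell markers 4 fell, with sums of 971.4 to 1221 in tumors, 1774 to 1990 in pre-leukemic pools and 1807 to 2256 in wild-type pools, led by Ms4a1 (-1.95) and Cd79a (-1.44). Of 6 endothelial markers 4 fell, with sums of 1073 to 1336 in tumors, 1235 to 1701 in pre-leukemic pools and 1443 to 1772 in wild-type pools, led by Kdr and Emcn (-0.90 each). The Emcn call was lost without wild-type replicate 2 (-0.78) or 3 (-0.87) or tumor replicate 2 (-0.79) or 4 (-0.82). Of 9 markers of macrophages and dendritic cells 3 rose and 0 fell, with sums of 4458 to 9176 in tumors, 5408 to 6070 in pre-leukemic pools and 4761 to 5476 in wild-type pools, led by Cd5l (3.22) and Cd68 (0.64). T-lineage markers stayed present in tumors: 4 of 7 were lower, led by Cd5 (-1.56) and Cd2 (-0.56), with sums of 22070 to 22830, against 23500 to 26700 in pre-leukemic pools and 24700 to 26760 in wild-type pools. In pre-leukemic against wild-type thymus 0 markers of any list were called. None of the measured markers had a group mean at or below 4.69, the median of the olfactory receptor clusters. Some group means were below 6.43, the 90th percentile of those clusters, and so were weak. Among them were Ucp1 (5.69), Prss16 (6.11) and Ms4a1 (5.29) in tumors and Cd5l (6.04) in wild type. Perp and Trp63 are known from epithelium, Cd80 from antigen-presenting cells and Fas from thymocytes, and the part of these cell types in the p53 target values was not tested.

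**Figure D5:**
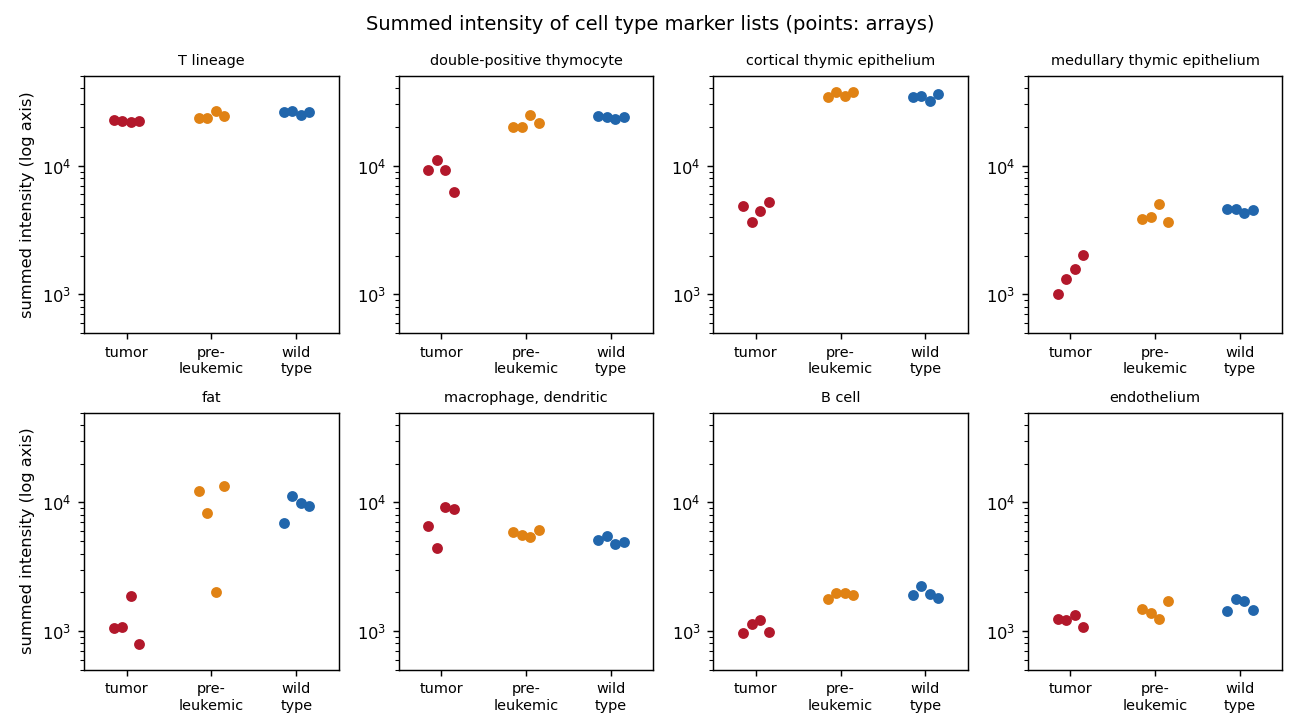
Summed intensity of each marker list, on a log axis shared by all panels, is plotted per array for tumor, pre-leukemic and wild-type thymus. Cortical epithelium lies at 3650 to 5240 in tumors, against 31810 to 36050 in wild type. The T-lineage sum is 22070 to 22830 in tumors, below the 24700 to 26760 of wild type, and fat on pre-leukemic array 3 is at 2023.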

How the data were processed

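Total RNA was amplified and biotin-labelled for Affymetrix Mouse Exon 1.0 ST arrays, per the labels' protocols. The deposited values are linear, normalized intensities, 1 per transcript cluster and array, made with a tool and normalization not given in the sources used here. They were log2-transformed with no pseudocount. Each comparison was fitted on its 8 arrays with limma 3.58.1 in R 4.3.3 (lmFit, eBayes, two-sided), over all 17829 clusters with Benjamini-Hochberg adjustment. Every adjusted p is from that test. The code was tested on simulated data. Arrays have no read depth, and their number limits the precision.

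Symbols came from the platform annotation (15618 clusters with 1 symbol, 1370 with several, 841 with none). The members and all lists were chosen with earlier results of these data known, so they give no independent support to a pattern. Values of every array are given for members that were called in tumors with no overlap between the groups, and for the 6 of smallest p in pre-leukemic thymus. From other lists, the 2 largest called rises and falls in tumors are named. No label says that replicate numbers pair the samples, so the main fits had no block. Deviations of same-numbered arrays from their group means correlated at -0.55 to 0.42. With 4 arrays a group, these correlations cannot show whether the numbers mark pairs. The alternatives were other fits, scalings, filters and array weights, a replicate block, and leaving out arrays. Another 24 columns, in other matrices, match no sample label and were not used.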

Additional observations from a re-analysis of the deposited data

Results flagged for a closer look

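In each group of 4 arrays, the gap between the most extreme array and its nearest neighbour was compared with the range of the group, for 33 genes in 3 groups. Of these 99 tests 5 passed Dixon's 95% critical value, and chance flags about 1 in 20 groups. Trp73, a p53 relative, was high on pre-leukemic array 2, at 6.71 against 6.23 to 6.31 on the other 3 pre-leukemic arrays. Dcxr was high on the same array, at 8.16 against 7.95 to 7.98. Dcxr was also low on tumor array 4, at 7.55 against 7.68 to 7.71 on the other tumors. Sesn1 was low on tumor array 4 as well, at 9.79 against 10.10 to 10.15. Cd80 was low on tumor array 2, at 7.15 against 7.54 to 7.62. Pre-leukemic array 2 and tumor array 2 are among the 4 arrays of narrowest intensity range, and the part of that in these values was not tested.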

How the results depend on the processing

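The counts of p53 targets called in tumors against wild type (11 higher, 8 lower) fell to 2 and 2 when limma tested for a change beyond 1.5-fold, and to 3 and 4 when a posterior probability over 95% was also asked for, as in the series' own criterion. Leaving out 1 array gave 9 to 12 higher and 6 to 8 lower. In tumors against pre-leukemic thymus (2 higher, 6 lower) there were 11 higher and 9 lower with all 12 arrays in 1 fit, 6 and 4 with arrays centred on their medians, 5 and 7 with limma's trend, 0 and 2 beyond 1.5-fold, 1 and 2 with the posterior, 7 and 8 with array weights, and 1 and 2 without the 4 arrays of narrowest range, an alternative added after seeing the data. Leaving out 1 array gave 2 to 3 higher and 4 to 6 lower. In pre-leukemic against wild-type thymus 0 members were called under every alternative run. At an unadjusted p under 0.05 (9 higher, 1 lower) there were 0 lower with all 12 arrays, 4 higher with centring, 2 lower with the trend, 15 higher and 5 lower with array weights, and 3 higher and 0 lower without the narrow arrays. Leaving out 1 array gave 4 to 13 higher and 0 to 4 lower. That count was not made for the 1.5-fold and posterior settings. With the replicate number as a block, 9 members were higher and 6 lower in tumors against wild type, 2 and 4 against pre-leukemic thymus, and 0 were called in pre-leukemic thymus, with 5 higher and 1 lower at an unadjusted p under 0.05. The cause of these shifts was not tested. No member called in both fits changed sign. With 4 arrays a group, small differences such as those of Plk3 and Dcxr sat at the threshold.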
